A study of Mus musculus with 8 samples.

Results

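The Hox genes encode homeodomain transcription factors and lie in 4 clusters, Hoxa to Hoxd. All array probes other than control spots whose accession mapped to a symbol made of Hox, a cluster letter and a paralog number were taken, which gave 43 probes for 39 genes, out of 39429 probes on the array. Hoxa had 11 of these genes, Hoxb 10, Hoxc 9 and Hoxd 9. The choice was made by name alone, but with earlier results of these data known. The cells were R1 mouse embryonic stem cells (mESCs), a pluripotent line that forms embryoid bodies in suspension, and all were differentiated in such aggregates for 48 h. They had been transfected with siRNA 1 (3 arrays), siRNA 2 (2 arrays) or a control siRNA (3 arrays, called Control), and RNA was taken 48 h after transfection. Both siRNAs were directed at CnAb1, a splice variant of a calcineurin catalytic subunit. The model is a transient knockdown in 1 cell line. Whether the replicates came from separate cultures is not stated, and the p-values then cover only array-to-array spread, which may be technical. The array's only Ppp3cb probe, for the gene that encodes CnAb1, cannot separate that variant from the other transcripts as far as the files show, and so does not check the knockdown. It read 0.18, 0.39 and 0.61 in siRNA 1, 0.42 and 0.62 in siRNA 2, and 0.75, 0.52 and 0.62 in Control, on the log2 scale explained below, and the groups overlapped.

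Within a cluster, gene order follows the order in which the genes are switched on in the embryo and the position along the head-to-tail axis at which each is expressed. Genes of low paralog number are activated first, in the primitive streak and the hindbrain, and genes of high number last, in the trunk, tail and limb buds. Retinoic acid, Wnt and FGF signals and the Cdx factors promote this opening, Polycomb proteins hold the clusters silent in pluripotent cells, and Pbx and Meis proteins bind DNA together with Hox proteins.

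The promoters of Hoxb1, Hoxb8 and Hoxa6 are shown because these 3 genes are described array by array below and represent an early gene that Hox and Pbx proteins are known to regulate, a Cdx-responsive trunk gene and a neighbour of the Hoxa5 gene. Each is the 250 bases before the start of the gene, from RefSeq on build GRCm38.p6, and capitals mark the letters TTTATG (a Cdx-type motif), TGATNNAT (a Hox and Pbx type motif) or AGGTCA (a retinoid receptor half-site) on either strand.
Hoxb1 (chr11:96365508-96365757 on the plus strand): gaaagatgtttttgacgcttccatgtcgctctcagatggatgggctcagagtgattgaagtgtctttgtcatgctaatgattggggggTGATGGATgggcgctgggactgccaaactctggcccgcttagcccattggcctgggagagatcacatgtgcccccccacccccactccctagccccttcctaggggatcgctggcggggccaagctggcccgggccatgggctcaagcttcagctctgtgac
Hoxb8 (chr11:96281655-96281904 on the plus strand): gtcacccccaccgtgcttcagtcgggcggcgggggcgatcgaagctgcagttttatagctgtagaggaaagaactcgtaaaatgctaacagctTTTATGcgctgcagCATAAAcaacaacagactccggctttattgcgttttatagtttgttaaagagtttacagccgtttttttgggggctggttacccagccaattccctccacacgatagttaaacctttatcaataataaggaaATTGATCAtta
Hoxa6 (chr6:52208673-52208922 on the minus strand): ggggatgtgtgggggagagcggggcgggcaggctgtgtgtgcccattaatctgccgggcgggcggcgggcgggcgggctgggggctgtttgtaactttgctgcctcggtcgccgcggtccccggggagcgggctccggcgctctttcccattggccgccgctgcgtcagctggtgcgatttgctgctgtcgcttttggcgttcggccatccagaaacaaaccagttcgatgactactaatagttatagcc

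Of the 39 genes, 22 had a promoter in the table, with 24 starts in all. TTTATG occurred in 5 of the 24 (20.8%) against 10.8% of 32851 promoters of the same length, TGATNNAT in 4 (16.7%) against 7.68%, and AGGTCA in 6 (25%) against 14%. The Hoxb8 window held TTTATG at 2 places and TGATNNAT at 1, and the Hoxb1 window held TGATNNAT at 1. Hoxa6 had none of the 3 motifs but 24 CpG dinucleotides, against a median of 6 over all promoters and 12.5 over the Hox promoters. A match of letters is a description of the sequence, and no array measured binding.

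Signal is given as log2 of the processed spot intensity relative to the 75th percentile of its array, so that values below 0 lie under that percentile. A probe is called well above background where the scanner software marked it so. Levels of different probes are not comparable, and each gene is set only against itself. In these short-term embryoid bodies, 22 of 39 Hox genes were well above background on all 8 arrays, 7 on some arrays and 10 on none. By array the number was 25, 26 and 24 in siRNA 1, 26 and 25 in siRNA 2, and 25, 27 and 26 in Control. Of all genes, 69.3%, 73.9% and 70.4% were well above background in siRNA 1. It was 70.1% and 69.5% in siRNA 2, and 66.7%, 73.5% and 72.9% in Control. The test took the genes for which every array of 1 or more groups was well above background. Over all genes that was 22418 of 32530, and among the Hox genes it was 25 of 39. The 25 were 9 of 10 Hoxb genes, 7 of 9 Hoxc genes, 6 of 11 Hoxa genes and 3 of 9 Hoxd genes. By paralog number they were 6 of 8 genes of groups 1 to 3, 12 of 15 of groups 4 to 8 and 7 of 16 of groups 9 to 13.

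**Figure D1:**
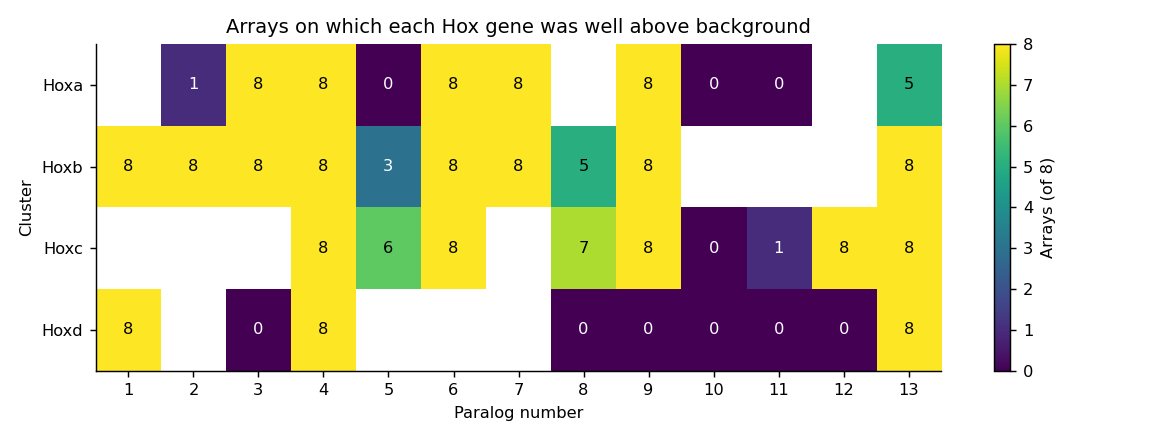
Number of the 8 arrays on which each Hox gene (its brightest probe) was well above background, by cluster (rows) and paralog number (columns). Empty cells have no gene or one that is not reported, and 6 of the 10 genes at 0 lie in the Hoxd cluster.

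The 10 genes on no array were Hoxa5, a lung and trunk regulator, Hoxa10 and Hoxa11, limb and uterus regulators, Hoxc10, Hoxd3 and the run Hoxd8 to Hoxd12. Their array signals say only that they were not detectable above background. Within the Hoxd cluster, Hoxd13, which patterns digits, and Hoxd1 and Hoxd4 were nevertheless well above background on all 8 arrays. Among the 4 untested genes seen on some arrays, Hoxa2, the selector of the second pharyngeal arch, and Hoxc11 were well above background on Control replicate 2 alone. Hoxa13 was so on 5 arrays, and Hoxb5 on 1 array of each group. With siRNA 1 and siRNA 2 dim throughout, Hoxa2 and Hoxc11 gave no bound on a fold difference, since the Control mean lay below the lowest signal well above background on those arrays. The second probes of Hoxa13 and Hoxb3 were above background on no array, while both probes of Hoxa9 were so on all 8.

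All 9 pluripotency genes on the list, Pou5f1, Sox2 and Nanog included, were well above background on every array. Of 15 primitive streak and mesoderm markers, between 12 and 14 were so in siRNA 1, between 12 and 13 in siRNA 2 and between 12 and 13 in Control. Fibroblasts, a feeder layer cell for mESCs that can express Hox genes, had between 11 and 12 of 15 markers above background in siRNA 1 and in siRNA 2 and between 12 and 13 in Control, with Prrx1 on no array. The summed fibroblast signal, as a multiple of the 75th percentile, ranged from 12.9 to 18.3 in siRNA 1, from 15.9 to 17.1 in siRNA 2 and from 13.6 to 18.4 in Control. A sum over probes is weighted to the brightest of them. The sum of each list is set only against itself across arrays and is not a count of cells. In bulk RNA, fewer cells of a type and less RNA per cell cannot be told apart.

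The arrays lay on 3 slides, with replicate 1 of each group on slide 1, siRNA 1 replicate 3 and Control replicate 2 on slide 2, and siRNA 1 replicate 2, siRNA 2 replicate 2 and Control replicate 3 on slide 3. Every siRNA 1 array lay at position 2, every siRNA 2 array at position 3 and every Control array at position 1 of its slide, so that position and group cannot be told apart. Replicates are numbered here by the label of each scanner file. In the deposited value table the Control 2 and Control 3 columns hold each other's values, so the array called Control replicate 2 here, on slide 2, may be replicate 3. Deviations from the group means correlated between 0.33 and 0.70 for 6 of the 7 pairs of arrays on 1 slide and by 0.04 for the pair on slide 2. The 2 siRNA 2 arrays deviate from their mean by equal and opposite amounts, so the pairs with them are not separate evidence. One pair on different slides, siRNA 1 replicate 3 and siRNA 2 replicate 2, reached 0.36. Between 68.0% and 75.1% of spots were well above background. Precision is limited by having 2 or 3 arrays a group.

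**Figure D2:**
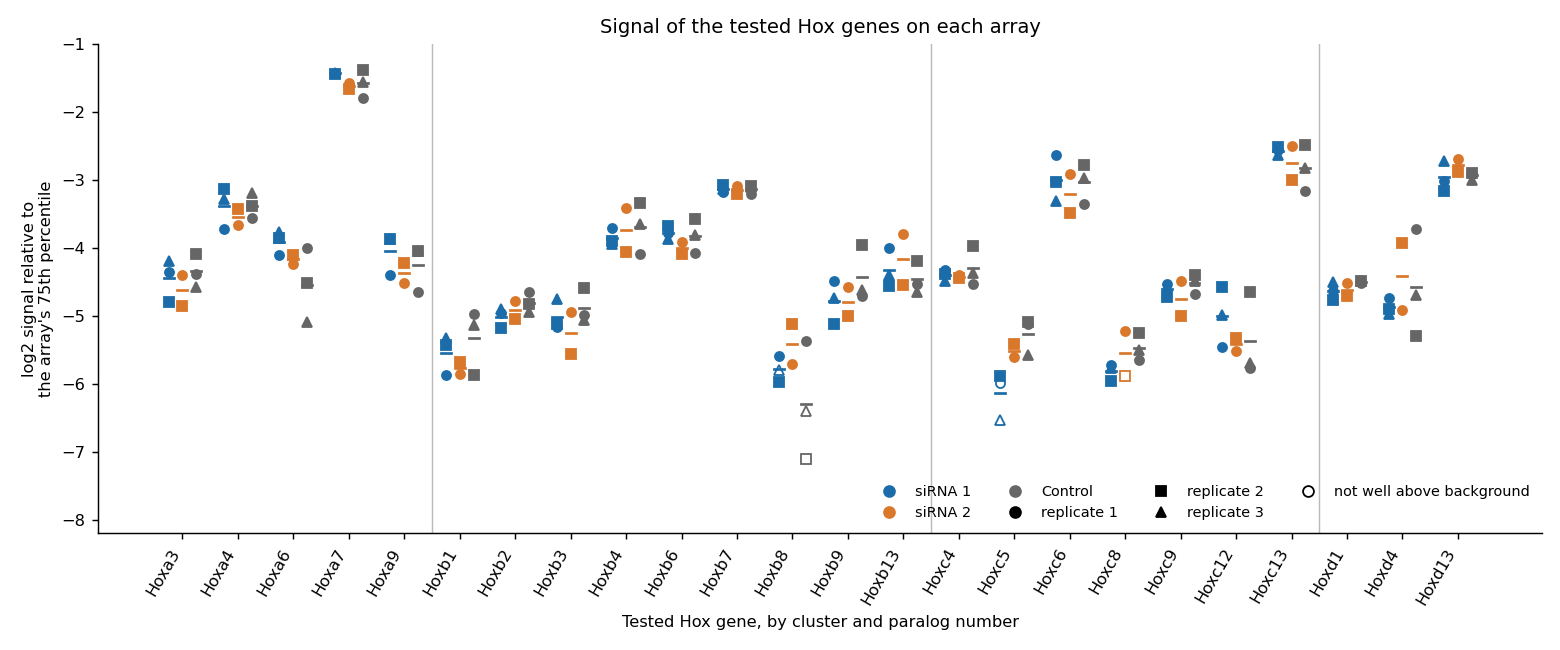
Log2 signal of 24 of the 25 tested Hox genes on each array, relative to the array's 75th percentile, by cluster and paralog number. Points are arrays (shape: replicate, open: not well above background) and short lines are group means, and the groups overlap for most genes.

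No Hox gene passed the test over all genes. Limma called 0 of 25 Hox genes, and 0.0% of 22418 genes, in each of the 4 comparisons (both siRNAs, siRNA 1 and siRNA 2 against Control, and siRNA 2 against siRNA 1). For both siRNAs together, no Hox gene lay below all Control arrays and none above them, where 1.01% and 2.43% of all genes did (3.44% in either direction). The smallest adjusted p of a Hox gene was 0.9998, for siRNA 2 against Control, so that where a gene below has only limma's unadjusted p its adjusted p was at least this. At an unadjusted p under 0.05 there were 2 Hox genes for both siRNAs (Hoxc5 among them) against 3.59% of all genes, 2 for siRNA 1 (Hoxc5 and Hoxa6) against 3.51%, 1 for siRNA 2 against 3.35%, and 2 between the siRNAs (Hoxc5 among them) against 3.36%. With 25 genes, 2 is 8% and 1 is 4%, and these counts are too small to set the clusters apart from other genes. Hoxc5 entered the test through siRNA 2 and Control and was dim on 2 of 3 siRNA 1 arrays. That filter favours a lower siRNA 1 value, so the place of Hoxc5 in these counts is not read as support for a difference. With only genes well above background on every array, each comparison had 1 of 22 Hox genes at limma's unadjusted p under 0.05. Over all genes it was then between 710 and 757 of 21062. None of 23 alternative settings called a Hox gene.

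The Hox medians lay slightly below 0. With both siRNAs against Control, 17 of 25 Hox genes were lower with a median log2 difference of -0.08, against 47.2% of all genes and a median of 0.0071. For siRNA 1 it was 14 of 25 and -0.09, against 41.8% and 0.02, and for siRNA 2 it was 19 of 25 and -0.12, against 50.2% and -0.00087. These comparisons share the Control arrays. Without Control replicate 2 the medians were 0.02 for both siRNAs, 0.02 for siRNA 1 and -0.04 for siRNA 2, so that the direction of the first 2 rested on that array. Without Control replicate 1 the median for siRNA 2 was -0.24, and without siRNA 2 replicate 2 it was -0.02.

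**Figure D3:**
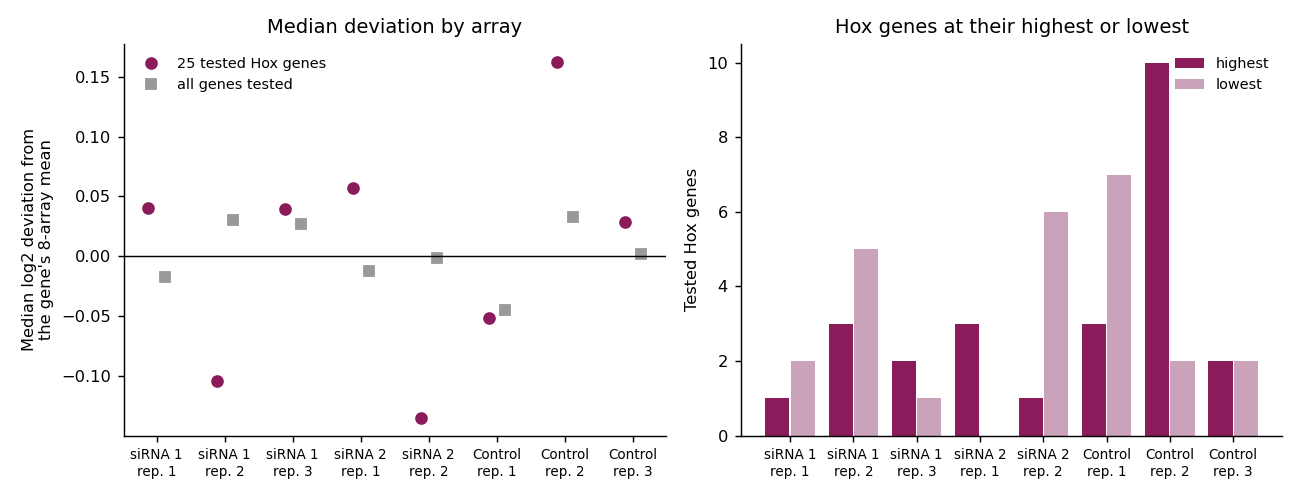
Left, median deviation of the tested Hox genes and of all genes tested from each gene's mean over the 8 arrays, in log2 units. Right, number of the 25 Hox genes that were at their highest or lowest on each array. Control replicate 2 stands at 0.16 and holds 10 of the highest values.

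By array, Control replicate 2 held the highest value of 10 of the 25 genes, against 17.0% of all genes, and its median Hox deviation from the gene means was 0.16. The other deviations lay between -0.10 and 0.04 in siRNA 1, at 0.06 and -0.13 in siRNA 2, and at -0.05 and 0.03 on the remaining Control arrays. Control replicate 1 held the lowest value of 7 genes, against 22.8% of all genes, and siRNA 2 replicate 2 that of 6, against 10.8%. Within slides, the median Hox difference from the Control array was 0.03, -0.15 and -0.07 for siRNA 1 on slides 1, 2 and 3, and 0.12 and -0.18 for siRNA 2 on slides 1 and 3. Over all genes these medians were 0.03, -0.00064 and 0.03 for siRNA 1, and 0.02 and -0.01 for siRNA 2. The Hox medians thus lay above 0 on slide 1, where siRNA 1 lay at the median of all genes to 2 decimals, and below 0 on the other slides.

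Genes of paralog groups 1 to 3, the first to be switched on, lay lower than Control as a group. All 6 tested members were lower under siRNA 1 (median -0.16), under siRNA 2 (median -0.32) and for both siRNAs (median -0.22). Over all genes 41.8%, 50.2% and 47.2% were lower. Each of the 6 had its highest value on a Control array, 2 genes on each of the 3. Of all genes, 13.6%, 17.0% and 7.39% had theirs on Control replicates 1, 2 and 3. This division by paralog number was made after the values had been seen, the 3 comparisons share their controls, and no member passed the test. Genes of groups 4 to 8 had medians of 0.0043 under siRNA 1 and -0.06 under siRNA 2, with 5 and 9 of 12 lower. Genes of groups 9 to 13 had medians of 0.13 and -0.04, with 3 and 4 of 7 lower.

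The medians moved with the processing and with single arrays. For groups 1 to 3 they ranged over the alternatives from -0.24 to -0.05 for siRNA 1 and from -0.43 to -0.05 for siRNA 2. The siRNA 2 median was -0.05 without siRNA 2 replicate 2, -0.43 without siRNA 2 replicate 1, -0.18 without Control replicate 2, -0.06 under normexp and -0.19 with the slide as a block. The siRNA 1 median was -0.09 without siRNA 1 replicate 2, -0.24 without siRNA 1 replicate 3 and -0.05 under normexp. Under siRNA 1, 4 of the 6 genes were lower without Control replicate 2 and with array weights. It was 5 of 6 without background correction, without siRNA 1 replicate 2 and without the slide 1 arrays. For siRNA 2, 5 of 6 were lower under normexp and without siRNA 2 replicate 2. Groups 4 to 8 ranged from -0.08 to 0.04 for siRNA 1 and from -0.18 to 0.02 for siRNA 2, and groups 9 to 13 from -0.02 to 0.26 and from -0.24 to 0.17. For groups 9 to 13 under siRNA 1, the median was 0.00012 without Control replicate 1, 0.26 without Control replicate 2, 0.04 without Control replicate 3 and -0.0034 without siRNA 1 replicate 1. Under siRNA 2 it was -0.24, 0.17 and -0.03 without Control replicates 1, 2 and 3, -0.09 and 0.03 without siRNA 2 replicates 1 and 2, and 0.14 with the slide as a block. The distance between the paralog groups was therefore not stable, and it was not tested.

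Within slides, 4, 5 and 6 of the 6 genes were lower in siRNA 1 on slides 1, 2 and 3, and 5 and 6 in siRNA 2 on slides 1 and 3, where between 41.4% and 52.4% of all genes were lower. Without the slide 1 arrays, Hoxb1 stood at 0.12 under siRNA 1.

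**Figure D4:**
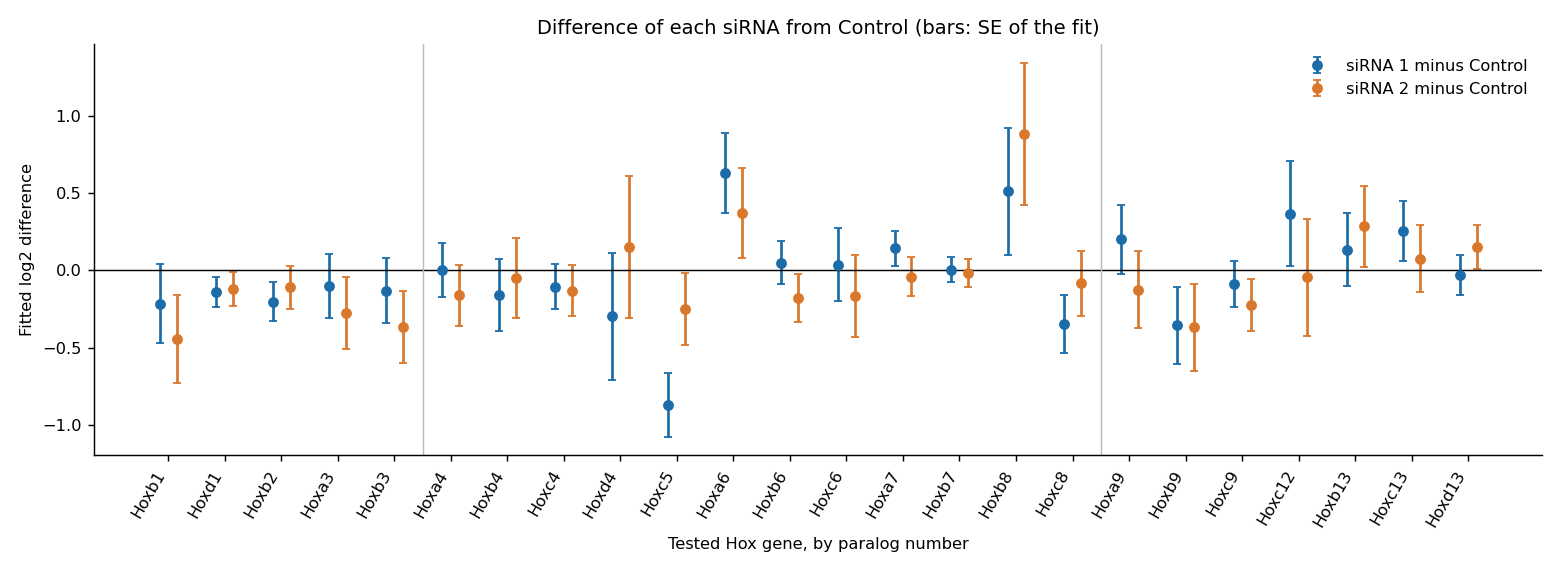
Fitted log2 difference of siRNA 1 and of siRNA 2 from Control for 24 of the 25 tested Hox genes in order of paralog number, with grey lines after groups 3 and 8. Bars are the SE of the limma fit, and all 5 genes left of the first line lie below 0 for both siRNAs.

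Hoxb1, which specifies a hindbrain segment and whose upstream sequence is printed above, had -5.87, -5.43 and -5.33 in siRNA 1, -5.86 and -5.69 in siRNA 2, and -4.98, -5.87 and -5.13 in Control. Control replicate 2 lay as low as the lowest siRNA arrays, so the groups overlapped. Its fitted differences were -0.21 for siRNA 1 and -0.44 for siRNA 2 (limma's unadjusted p = 0.16, adjusted p = 0.9998). Within slides they were -0.89, 0.54 and -0.29 for siRNA 1 on slides 1, 2 and 3, and -0.88 and -0.55 for siRNA 2 on slides 1 and 3, so that slide 2 went the other way. Over the alternatives the siRNA 2 difference ranged from -0.72 to -0.10.

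Hoxd1, a gene of sensory neurons, had -4.63, -4.77 and -4.51 in siRNA 1, -4.52 and -4.71 in siRNA 2, and -4.52, -4.49 and -4.49 in Control. Both siRNA 2 arrays lay below all Control arrays by a narrow margin, as in 2 of 25 Hox genes against 8.2% of all genes, and the difference was -0.12 ± 0.11 (SE; limma's unadjusted p = 0.307). The siRNA 1 difference was -0.14 (SE 0.10; limma's unadjusted p = 0.2). Hoxb2, a hindbrain gene known as a target of Hoxb1, had -4.97, -5.17 and -4.90 in siRNA 1, -4.79 and -5.05 in siRNA 2, and -4.65, -4.83 and -4.95 in Control. The siRNA 1 difference of Hoxb2 was -0.20 (SE 0.13; limma's unadjusted p = 0.148) and that of siRNA 2 was -0.11, and it was below 0 for every pair of arrays on a slide.

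Hoxa3, needed for the thymus and parathyroid, had -4.36, -4.79 and -4.20 in siRNA 1, -4.39 and -4.85 in siRNA 2, and -4.38, -4.09 and -4.57 in Control. Hoxb3, expressed in the hindbrain and pharyngeal arches, had -5.16, -5.13 and -4.76 in siRNA 1, -4.94 and -5.56 in siRNA 2, and -4.99, -4.59 and -5.07 in Control. In both genes siRNA 2 replicate 2 was the lowest array and Control replicate 2 the highest. The siRNA 2 differences were -0.28 for Hoxa3 and -0.37 for Hoxb3 (SE 0.23; limma's unadjusted p = 0.163), and the siRNA 1 differences -0.10 and -0.13.

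In paralog group 4, whose members pattern the neck vertebrae, the groups overlapped for all 4 genes. Hoxa4 had -3.72, -3.14 and -3.28 in siRNA 1, -3.66 and -3.43 in siRNA 2, and -3.56, -3.39 and -3.20 in Control. Hoxb4, also known from blood progenitors, had -3.71, -3.91 and -3.95 in siRNA 1, -3.42 and -4.06 in siRNA 2, and -4.09, -3.34 and -3.65 in Control. Hoxc4 had -4.32, -4.39 and -4.48 in siRNA 1, -4.40 and -4.45 in siRNA 2, and -4.54, -3.97 and -4.37 in Control, and its siRNA arrays all lay between the Control arrays. Hoxd4 had -4.74, -4.90 and -4.97 in siRNA 1, -4.91 and -3.93 in siRNA 2, and -3.73, -5.30 and -4.70 in Control, and its SD of 0.69 in siRNA 2 and 0.79 in Control exceeded its differences from Control, -0.30 for siRNA 1 and 0.15 for siRNA 2.

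Hoxc5, a gene of the neck and upper trunk (probe A_55_P1966518), is described with its dim arrays marked, since it entered the test through siRNA 2 and Control. That filter favours a lower siRNA 1 value, so the p-values and the separation below are not read as support for a difference. The Hoxc5 signals were -5.99, -5.88 and -6.53 in siRNA 1, -5.61 and -5.42 in siRNA 2, and -5.13, -5.09 and -5.57 in Control. All 3 siRNA 1 arrays lay below all others, and 2 of them, replicates 1 and 3, were not well above background. The fitted siRNA 1 difference, which rests on those dim spots, was -0.87 ± 0.21 (SE), with limma's unadjusted p of 0.00391 and adjusted p of 0.9999. It ranged from -1.02 to -0.13 over the alternatives, and it was -0.16 with normexp background correction and -0.13 without background correction. With only genes well above background on every array, it left the test, and 1 of 22 Hox genes had an unadjusted p under 0.05 for siRNA 1 by limma. Groups without overlap, lower under siRNA 1, were found for Hoxc5 and Hoxc8, 2 of 25 genes, against 2.5% of all genes, where Hoxc5 rests on dim arrays. None lay higher without overlap, against 5.4%, and 7.9% of all genes did so in either direction. The siRNA 2 difference was -0.25, and siRNA 2 stood above siRNA 1 by 0.62 ± 0.23 (SE; limma's unadjusted p = 0.0312, adjusted p = 0.99996). Within slides, the Hoxc5 differences were -0.86, -1.44 and -0.30 for siRNA 1 on slides 1, 2 and 3, and -0.48 and 0.16 for siRNA 2 on slides 1 and 3.

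Hoxa6, a trunk gene next to Hoxa5 (probe A_51_P360586), stood on the higher side with -4.11, -3.85 and -3.77 in siRNA 1, -4.23 and -4.10 in siRNA 2, and -4.00, -4.52 and -5.09 in Control. Control replicates 2 and 3 were the lowest arrays, while Control replicate 1 lay among the siRNA arrays. The siRNA 1 difference was 0.63 ± 0.26 (SE), or 1.55-fold, with limma's unadjusted p of 0.0446 and adjusted p of 0.9999, and the siRNA 2 difference was 0.37. Within slides they were -0.11, 0.75 and 1.24 for siRNA 1 on slides 1, 2 and 3, and -0.23 and 0.99 for siRNA 2 on slides 1 and 3, so that both siRNAs were lower than Control on slide 1. Over the alternatives the siRNA 1 difference ranged from 0.29 to 1.07.

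Hoxb8, a Cdx-responsive gene of the trunk and of blood progenitors, had -5.59, -5.97 and -5.80 in siRNA 1, -5.70 and -5.12 in siRNA 2, and -5.38, -7.11 and -6.40 in Control. It was well above background on 2 of 3 siRNA 1 arrays, both siRNA 2 arrays and 1 of 3 Control arrays. Hoxb8 thus entered the test through siRNA 2 alone, the group with its highest mean. That filter favours a higher siRNA 2 value, so the p below is not read as support for a difference. The fitted differences of 0.51 for siRNA 1 and 0.88 for siRNA 2 (SE 0.46; limma's unadjusted p = 0.0959) therefore rest on dim Control spots, and under normexp they were -0.04 and 0.07. On slide 1, the only slide whose arrays were all well above background, siRNA 1 and siRNA 2 differed from Control by -0.21 and -0.33.

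The remaining genes of groups 6 to 8 showed no separation from Control in either direction, apart from Hoxc8. Hoxb6, a gene of lateral plate mesoderm, had -3.79, -3.67 and -3.87 in siRNA 1, -3.92 and -4.09 in siRNA 2, and -4.08, -3.58 and -3.81 in Control. Hoxc6, a thoracic gene, had -2.64, -3.04 and -3.31 in siRNA 1, -2.92 and -3.48 in siRNA 2, and -3.35, -2.78 and -2.97 in Control. Both siRNA 2 arrays of Hoxb6 lay below all siRNA 1 arrays, as for Hoxa7, and in all 3 of 25 genes were lower without overlap against 11.9% of all genes. Hoxc5 lay higher, resting on dim siRNA 1 arrays, 1 of 25 against 7.27%, and 19.1% of all genes separated in either direction.

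Hoxa7 had -1.42, -1.44 and -1.43 in siRNA 1, -1.57 and -1.66 in siRNA 2, and -1.79, -1.38 and -1.56 in Control. Hoxb7 had -3.18, -3.08 and -3.13 in siRNA 1, -3.09 and -3.21 in siRNA 2, and -3.21, -3.08 and -3.11 in Control. Hoxb7 spanned the narrowest range of the 25 genes, and its differences from Control were 0.0054 for siRNA 1 and -0.02 for siRNA 2. Hoxa7 differed by 0.14 and -0.04. Hoxc8, a gene of brachial motor neurons and thoracic vertebrae, had -5.73, -5.96 and -5.76 in siRNA 1, -5.22 and -5.88 in siRNA 2, and -5.66, -5.26 and -5.50 in Control. All 3 siRNA 1 arrays lay below all Control arrays, with a difference of -0.35 ± 0.19 (SE; limma's unadjusted p = 0.107, adjusted p = 0.9999). The siRNA 2 arrays of Hoxc8 lay on either side of Control and 1 of them was not well above background.

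**Figure D5:**
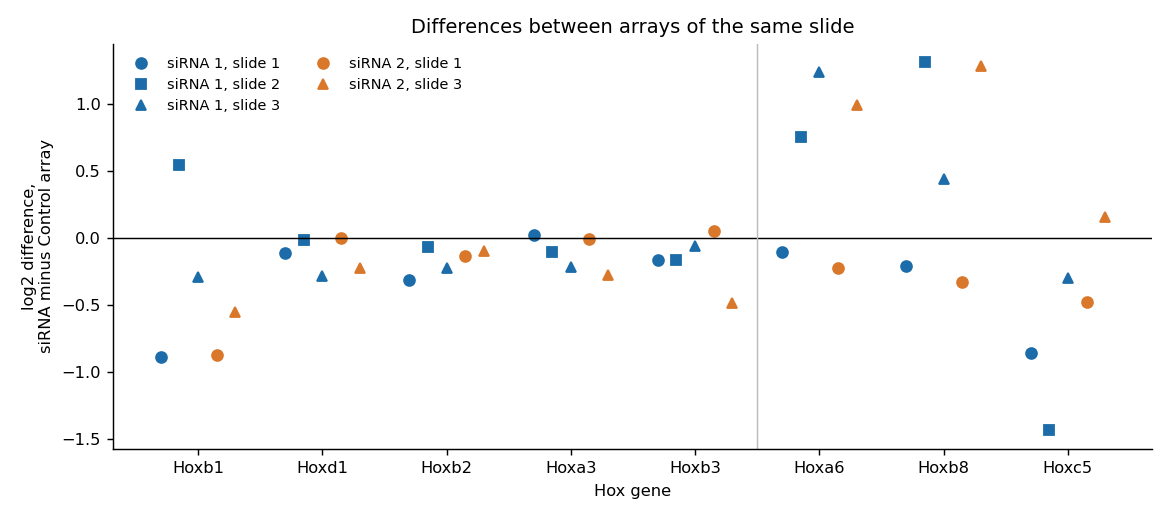
Log2 difference of each siRNA array from the Control array of its slide, for 5 of the 6 tested genes of paralog groups 1 to 3 (left of the line) and for Hoxa6, Hoxb8 and Hoxc5. Colour gives the siRNA and shape the slide. For Hoxa6 and Hoxb8 the slide 1 pairs lie below 0 and the other pairs above it.

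Among the genes of groups 9 to 13, which are switched on last, Hoxb9, a rib-patterning gene, had -4.49, -5.11 and -4.74 in siRNA 1, -4.58 and -5.01 in siRNA 2, and -4.70, -3.96 and -4.61 in Control. Control replicate 2 lay far above the rest, and without it the siRNA 1 and siRNA 2 differences, -0.36 and -0.37 with all arrays, were -0.12 and -0.14. With all arrays the SE for siRNA 1 was 0.25, with limma's unadjusted p of 0.198. Hoxa9, a regulator of blood stem cells, had -4.41, -3.87 and -3.87 in siRNA 1, -4.52 and -4.23 in siRNA 2, and -4.66, -4.04 and -4.05 in Control, and its groups overlapped. Hoxc9, a gene of thoracic motor neurons, had -4.53, -4.72 and -4.57 in siRNA 1, -4.49 and -5.01 in siRNA 2, and -4.68, -4.40 and -4.49 in Control. siRNA 2 replicate 2 was the lowest array, and the siRNA 2 difference of -0.23 (SE 0.17; limma's unadjusted p = 0.221) was 0.03 without it.

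Hoxc12 had -5.45, -4.58 and -4.99 in siRNA 1, -5.52 and -5.32 in siRNA 2, and -5.77, -4.66 and -5.70 in Control. Hoxc13, known from hair and nails, had -2.56, -2.52 and -2.63 in siRNA 1, -2.50 and -2.99 in siRNA 2, and -3.16, -2.49 and -2.82 in Control. In both genes the lowest Control array was replicate 1, and the siRNA 1 differences were 0.37 for Hoxc12 and 0.25 for Hoxc13 (SE 0.20; limma's unadjusted p = 0.235). Hoxb13, a tail and prostate gene, had -4.01, -4.56 and -4.40 in siRNA 1, -3.80 and -4.54 in siRNA 2, and -4.53, -4.19 and -4.65 in Control with overlapping groups. Hoxd13 had -3.01, -3.16 and -2.72 in siRNA 1, -2.69 and -2.88 in siRNA 2, and -2.91, -2.89 and -3.00 in Control. Both siRNA 2 arrays of Hoxd13 lay above all Control arrays, 1 of 25 genes higher without overlap against 8.75% of all genes (17.0% in either direction), and the difference was 0.15 ± 0.14 (SE).

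The transcription factors that bind with Hox proteins were all measurable. Of 9 Pbx, Meis and Pknox genes, all tested, 0 were called and 6 stood lower for both siRNAs (median -0.03). Meis2, a homeodomain cofactor, stood at -0.46 ± 0.17 under siRNA 1 and -0.64 ± 0.19 under siRNA 2 (SE; limma's unadjusted p = 0.0290 and 0.0110, adjusted p = 0.9999 and 0.9998). Pbx2 stood at -0.20 ± 0.08 under siRNA 1 (SE, limma's unadjusted p = 0.0406, adjusted p = 0.9999) and at -0.03 under siRNA 2.

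Of 25 upstream genes (Cdx factors, retinoid receptors and enzymes, and axial Wnt and FGF signals), 22 were tested, 0 were called, and 11 stood lower and 11 higher for both siRNAs (median -0.0080). Fgf8, a primitive streak growth factor, stood at -0.81 ± 0.28 under siRNA 1 and -1.35 ± 0.31 under siRNA 2 (SE). Limma's unadjusted p for Fgf8 was 0.0222 and 0.00325, and the adjusted p was 0.9999 and 0.9998. Wnt3, a signal that starts the primitive streak, stood at -0.12 ± 0.24 and -0.66 ± 0.27 (SE). For Wnt3, limma's unadjusted p was 0.646 and 0.0464, and the adjusted p was 0.9999 and 0.9998. Cdx2, a direct activator of trunk Hox genes, stood at 0.31 and -0.26 and differed between the siRNAs by -0.57 ± 0.20 (SE; limma's unadjusted p = 0.0231, adjusted p = 0.99996); it was named after its values were seen. Cdx4, Cyp26c1 and Wnt3a were above background on no array.

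Of 10 neighbouring and related homeobox genes, 7 were tested, 0 were called, and 5 stood lower and 2 higher for both siRNAs (median -0.03). Evx1, which lies at the end of the Hoxa cluster and is a primitive streak gene, stood at -0.71 under siRNA 1 and -1.63 ± 0.41 (SE) under siRNA 2. Limma's unadjusted p for Evx1 was 0.0984 and 0.00552, and the adjusted p was 0.9999 and 0.9998. Gbx2, a homeobox gene of the anterior hindbrain, stood at 0.41 ± 0.10 under siRNA 1 and 0.56 ± 0.11 under siRNA 2 (SE). Limma's unadjusted p for Gbx2 was 0.00513 and 0.00182, and the adjusted p was 0.9999 and 0.9904. Of 42 Polycomb and Trithorax genes, 41 were tested, 0 were called, and 16 stood lower and 25 higher for both siRNAs (median 0.01), with Kdm2b, which recruits a Polycomb complex to CpG islands, at 0.19 ± 0.08 (SE; limma's unadjusted p = 0.0376, adjusted p = 0.9999). Kmt2a was not among the named probes.

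Markers of other cells were read beside the Hox genes. The 12 tested primitive streak and mesoderm markers had a median of -0.25 under siRNA 1 and -0.72 under siRNA 2, with 8 and 10 lower, and their summed signal ranged from 7.19 to 10.66 in siRNA 1, from 7.34 to 7.53 in siRNA 2 and from 9.87 to 11.3 in Control. Fgf8, Wnt3 and Evx1, described above, belong to this list too. The 9 pluripotency markers had medians of 0.37 under siRNA 1 and 0.10 under siRNA 2, with 7 and 6 of 9 higher, but the arrays overlapped. Their median deviation from each gene's mean over the 8 arrays ranged from -0.02 to 0.17 in siRNA 1. It ranged from -0.15 to 0.07 in siRNA 2 and from -0.29 to 0.11 in Control. The 13 tested primitive and visceral endoderm markers had medians of -0.27 and -1.16, with 10 and 13 lower. Their deviations by array ranged from -0.11 to 0.56 in siRNA 1, from -0.77 to -0.75 in siRNA 2 and from -0.24 to 0.80 in Control. The 12 tested fibroblast markers had medians of -0.05 and -0.10, with 9 and 8 lower. The 10 tested neural tube and hindbrain markers had medians of 0.03 and -0.02, with 4 and 7 lower. Over all genes the medians were 0.02 and -0.00087, with 41.8% and 50.2% lower. At limma's unadjusted p under 0.05, 1 mesoderm, 1 endoderm and 3 fibroblast markers were lower under siRNA 1, and 6, 10 and 3 under siRNA 2, with 0 neural markers. Of all genes, 3.51% under siRNA 1 and 3.35% under siRNA 2 reached that p in either direction. Of the pluripotency markers, 2 were higher at that p under siRNA 1 and 1 under siRNA 2. No marker passed the test. The part of these cells in the Hox signals was not tested.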

How the data were processed

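Total RNA was labelled with Cy3 and hybridised to 1-colour Agilent arrays, per the labels. Per the file headers, the authors' scanner files come from Feature Extraction 10.7.3.1 (Agilent). The deposited processed intensity is background-corrected and unscaled between arrays. The deposited flags of other kinds mark spots well above background, outliers and saturation; no saturation occurred (0 spots). The authors' value table gives log2 values, which followed the scanner files as log2 processed signal minus the 75th percentile, centred per probe, with column medians between -0.04 and 0.02. Its Control 2 and Control 3 columns followed each other's scanner file (r = 0.9998), and the scanner files' labels were used. RMA appears, without a role, in the submitters' processing notes. The array design used mm9, so no coordinates are given except for RefSeq promoters.

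Spots of controls or with outlier marks were dropped, and repeats of 1 probe averaged. Accessions were matched to symbols through a RefSeq table of GRCm38.p6, which named 26425 of 39429 probes. The highest-mean probe stood for each gene, and 22418 genes passed the filter. Limma 3.58.1 in R 4.3.3 was fitted over the 3 groups with 5 residual degrees of freedom and Benjamini-Hochberg adjustment, threshold 0.05. The fit was also run on simulated arrays with 4-fold changes and noise independent between arrays. Arrays on 1 slide correlate in these data, so that run does not measure power or error rates here. Files were read in Python 3.11.15 (numpy 2.4.6, pandas 2.3.3) and plots drawn with matplotlib 3.10.9. The files give the median spot signal, which replaced the mean signal for normexp (offset 50). The tested Hox genes are named, those among the 12 with the smallest p with statistics, and other lists by their members with an unadjusted p under 0.05. A single Hox gene enters the counts and medians but is not reported here. Members and lists were chosen with earlier results of these data known.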

Additional observations from a re-analysis of the deposited data

How the results depend on the processing

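No alternative called a Hox gene in any of the 4 comparisons, whether the scaling, background correction, probe filter, variance model, block or arrays were altered. Replicate numbers as given by the scanner files paired the arrays only in part. Deviations of same-numbered arrays correlated between 0.33 and 0.70 where the arrays shared a slide. For the same-numbered pairs with Control replicate 2 or 3 the correlations were 0.01, -0.04 and 0.05. With Control 2 and Control 3 exchanged, as in the value table, number and slide would be the same, and the replicate block would be the slide block. With the replicate block 0 Hox genes were called in each comparison, and the medians were -0.10 for both siRNAs, -0.09 for siRNA 1, -0.09 for siRNA 2 and -0.09 between siRNAs. With the slide as a block they were -0.07, -0.09, -0.07 and -0.05, with 0 called. With 1 array left out, the Hox median ranged from -0.16 to 0.02 for both siRNAs, from -0.10 to 0.02 for siRNA 1, from -0.24 to -0.024 for siRNA 2 and from -0.19 to 0.072 for siRNA 2 against siRNA 1. The last of these, -0.14 with all arrays, was -0.0077 under quantile normalization, 0.00026 under normexp and -0.021 with no filter on dim probes. Unadjusted p under 0.05 was reached by 804 genes for both siRNAs and by 2658 with array weights, which called 9 genes, none of them Hox. Fitting only the compared groups called 1 gene between the siRNAs, and leaving out siRNA 2 replicate 2 called 1 for siRNA 2. Of 75 Hox differences from Control, 40, in 20 genes, crossed 0 in at least 1 alternative, and none was called. Among the genes given with statistics they were Hoxc8 under siRNA 2 (0.025 under quantile normalization, 0.038 under normexp and 0.036 without background correction) and for both siRNAs (0.0052 without background correction), Hoxb8 under siRNA 1 (-0.043, normexp), Hoxb2 under siRNA 2 (0.030, normexp), and Hoxb3 under siRNA 1 (0.0029 without background correction, 0.035 with array weights). Without the slide 1 arrays, an alternative chosen after seeing the data, Hoxc13 turned to -0.13 for both siRNAs and -0.34 for siRNA 2, and Hoxb1 to 0.12 for siRNA 1. With 1 array left out, Hoxc13 ranged from -0.0042 to 0.33 for both siRNAs and from -0.17 to 0.32 for siRNA 2, Hoxb3 from -0.26 to 0.017 for siRNA 1, and Hoxc8, Hoxb2 and Hoxc9 from -0.41 to 0.25, -0.24 to 0.021 and -0.48 to 0.033 for siRNA 2. The cause of these turns was not tested.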

Other observations

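Of 9 non-coding transcripts of the clusters, 2 had a named probe. Hoxa11os, transcribed from the Hoxa cluster beside Hoxa11, was well above background on all 8 arrays, although Hoxa11 was so on none. Its log2 signal was -4.48, -3.69 and -3.95 in siRNA 1, -4.77 and -4.02 in siRNA 2, and -4.93, -3.66 and -3.85 in Control. On slide 1 the signal was the lowest of each group, and the groups overlapped. Hoxd3os1 was well above background on no array.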
